A study of Mus musculus with 16 samples.

Results

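The genes described are Reg3a, Reg3b and Reg3g, which encode small secreted C-type lectins, and Ang4, which encodes the secreted ribonuclease angiogenin 4. They were taken by symbol from the deposited count tables of both gut regions, and the 4 genes stand among 46882 listed genes. All 4 passed the filter on low counts, as did 16001 genes in all. Reg3a passed it through its Si8 counts alone. The libraries came from RedMUC298trTg mice aged 6 to 8 weeks, a transgenic strain in which mucus-producing cells carry a red mCherry-tagged MUC2 reporter. Every group carries this transgene. Living epithelium from distal colon (DC) and from section 8 of the small intestine (Si8) was sorted into mCherry-positive goblet cells (GC) and mCherry-negative other epithelial cells (EC), with a C57Bl6 mouse setting the negative gate. There were 4 libraries in each of DC.EC, DC.GC, Si8.EC and Si8.GC, and the labels name the EC sorts colonocytes and enterocytes. The labels do not tie libraries to animals, so a p-value here covers the spread among these libraries, and that spread may be technical.

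Reg3 lectins are released by gut epithelium onto the mucosal surface, where Reg3g binds the cell wall of Gram-positive bacteria and Reg3b acts mainly on Gram-negative ones. Their transcription is known to be raised by microbial signals through MyD88 and by the cytokine IL-22 through STAT3. Angiogenin 4 is known as a bactericidal protein of Paneth cell granules, the secretory cells at the base of small intestinal crypts.

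Total counts per library were 14.9 to 17.7 M in DC.EC, 11.9 to 18.5 in DC.GC, 30.8 to 41.1 in Si8.EC and 37.4 to 40.5 in Si8.GC. The GC lysates were put through MinElute columns and the EC lysates through Mini columns, so the effect of the column and that of the sort cannot be told apart. The regions came in separate tables, and 37 mitochondrially encoded symbols were at 0 in every DC library while taking 3.19% to 8.36% of counts in Si8, so table and region cannot be told apart either. All 8 goblet markers (Muc2, Fcgbp, Clca1, Tff3, Agr2, Spink4, Spdef, Atoh1) were higher in GC than in EC in both regions. All 8 colonocyte markers were lower in DC.GC than in DC.EC, and all 8 enterocyte markers were lower in Si8.GC than in Si8.EC. In bulk RNA, fewer cells of a type and less RNA per cell cannot be told apart, so levels are those of a sort. Levels below are CPM, counts scaled to a common library total after TMM, and CPM per kb of the longest coding transcript wherever genes are compared with each other.

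The upstream sequences of the 4 genes are shown because the Reg3 genes had closely similar profiles over the libraries (Pearson r of at least 0.987 among them). All 4 had an entry among RefSeq promoters of build GRCm38.p6. Each stretch of 158 bases is on the gene's own strand, 5′ to 3′, and its last base is 21 bases before the RefSeq start site. The RefSeq start of Reg3b lies inside the span that the GENCODE M21 annotation gives this gene, so the stretch shown for Reg3b is upstream of the RefSeq start but within the GENCODE gene. Its last 4 bases belong to the first exon of the GENCODE transcript used for length. Capitals mark TATAAA, a form of the TATA box, and TTCNNNGAA, a form of the STAT site, on either strand.
Reg3b, chr6:78370707-78370864, plus strand: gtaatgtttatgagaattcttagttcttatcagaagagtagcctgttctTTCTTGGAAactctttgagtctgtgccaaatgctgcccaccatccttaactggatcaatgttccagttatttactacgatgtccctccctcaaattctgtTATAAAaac
Reg3g, chr6:78468895-78469052, minus strand: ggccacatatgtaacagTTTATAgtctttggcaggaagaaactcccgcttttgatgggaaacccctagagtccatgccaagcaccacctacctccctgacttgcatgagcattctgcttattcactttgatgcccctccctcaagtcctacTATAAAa
Reg3a, chr6:78380531-78380688, plus strand: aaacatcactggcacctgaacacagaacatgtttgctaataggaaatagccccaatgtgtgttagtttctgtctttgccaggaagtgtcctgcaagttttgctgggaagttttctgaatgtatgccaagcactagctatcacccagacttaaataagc
Ang4, chr14:51773611-51773768, minus strand: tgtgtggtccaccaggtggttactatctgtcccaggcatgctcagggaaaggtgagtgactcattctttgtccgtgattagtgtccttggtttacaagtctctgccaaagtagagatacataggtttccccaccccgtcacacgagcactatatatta

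Both strands of the 300-base RefSeq window were searched for exact strings only. Other forms of the TATA box or of the STAT site were not searched, so a gene without a match may still hold one. TATAAA began 29 bases before the start of Reg3b and 27 before that of Reg3g, where a further reverse-strand match lay 161 bases before the start; Reg3a and Ang4 had none. TTCNNNGAA began 129 bases before the start of Reg3b and, upstream of the printed stretch, 192 bases before that of Ang4, and was not found for Reg3a or Reg3g. The E-box CAGCTG was in none of the 4. Of 32851 RefSeq promoters of the same length, 13.6% held TATAAA, 8.3% TTCNNNGAA and 16.3% CAGCTG. The 250 bases before the start sites of Reg3b and Reg3g were 68.4% identical (173 of 253 aligned positions), against 43.6% to 47.5% for the other pairs of the 4. Those pairs include Reg3a with Reg3b (45.1%) and with Reg3g (47.5%), genes whose profiles were also alike. A link between upstream sequence and profile was not tested. The longest run that Reg3b and Reg3g share, 20 bases, ends at the start site in both.

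The Reg3 genes lie in the Reg cluster of chromosome 6 and Ang4 in the ribonuclease cluster of chromosome 14. In GENCODE M21 (GRCm38, the same assembly as mm10) Reg3b spans chr6:78370657-78373466 on the plus strand, Reg3a chr6:78380709-78383827 on the plus strand, Reg3g chr6:78466269-78468872 on the minus strand and Ang4 chr14:51763878-51773590 on the minus strand. Reg3d lies between Reg3b and Reg3a, and Reg2 and Reg1 between Reg3a and Reg3g, which begins 95.6 kb from Reg3b. The coding sequences of Reg3b and Reg3g were 76.0% identical (399 of 525 aligned positions), those of Reg3a and Reg3b 73.3%, and those of Reg3a and Reg3g 72.8%. The longest identical coding stretch of Reg3b and Reg3g was 35 bp, coding positions 26 to 60, shown as the largest exact coding match between them. It does not cover untranslated bases or reads aligned with mismatches.
Reg3b and Reg3g, shared coding stretch: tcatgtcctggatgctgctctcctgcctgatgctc

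None of the 734 words of 50 bases in the Reg3b transcript, of the 722 in Reg3g or of the 776 in Reg3a occurred in a transcript of another gene. Of the 660 words of Ang4, 31 (4.7%) also occurred in Ang2, which had 1 count in Si8.EC and 1 in Si8.GC, or in Ang5, which had 0 in every library. The read length is not given in the sources used here, so results for Reg3b and Reg3g are also given for their summed counts.

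Reg3b and Reg3g were among the most abundant transcripts of the Si8 epithelium and barely detected in the distal colon. Reg3b had 17801, 19356, 17287 and 12783 CPM in Si8.EC libraries S1, S3, S5 and S7. It had 7948, 9457, 8122 and 4289 CPM in Si8.GC libraries S2, S4, S6 and S8. The 4 Si8.EC libraries all lay above the 4 Si8.GC libraries, with S7 lowest among the former and S8 lowest among the latter. In DC.EC, Reg3b had 2.52, 2.85, 1.13 and 0.846 CPM in S10, S12, S14 and S17, from 14 to 48 counts a library. In DC.GC it had 0.164, 0.972, 0.471 and 0.147 CPM in S9, S11, S13 and S18, from 2 to 21 counts. The DC groups overlapped through S11, whose level exceeded that of S17.

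Reg3g followed the same order. It had 10229, 11783, 10092 and 6386 CPM in Si8.EC libraries S1, S3, S5 and S7, and 6710, 7882, 6915 and 3157 CPM in Si8.GC libraries S2, S4, S6 and S8. These groups overlapped, since S7, the lowest Si8.EC library, was below 3 of the Si8.GC libraries. In DC.EC it had 1.89, 1.75, 0.535 and 0.544 CPM in S10, S12, S14 and S17, and in DC.GC 0.492, 0.648, 0.576 and 0.221 CPM in S9, S11, S13 and S18. These values rest on 9 to 36 counts a library in DC.EC and 3 to 14 in DC.GC, and the groups overlapped.

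Reg3a, the third Reg3 lectin, was confined to Si8 apart from a single count. It had 63.7, 90.2, 64.6 and 43.9 CPM in Si8.EC libraries S1, S3, S5 and S7, and 23.7, 28.3, 26.4 and 11.999 CPM in Si8.GC libraries S2, S4, S6 and S8. The groups did not overlap, and S7 and S8 were again the lowest of their groups. Reg3a had 0 counts in all 4 DC.EC libraries, which allows a level of up to 0.0442 CPM over the group (3 counts, counting error only), and 1 count in DC.GC, in S18.

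Ang4 had another distribution, highest in the goblet sort of Si8 and higher in the goblet sort of each region. It had 327, 593, 427 and 957 CPM in Si8.GC libraries S2, S4, S6 and S8, and 27.1, 22.4, 53.7 and 20.4 CPM in Si8.EC libraries S1, S3, S5 and S7. In DC.GC it had 17.1, 17.03, 18.7 and 22.2 CPM in S9, S11, S13 and S18, from 302 to 368 counts. In DC.EC it had 0.105, 0.389, 0.297 and 0.121 CPM in S10, S12, S14 and S17, from 2 to 6 counts. GC and EC did not overlap in either region. S8, the Si8.GC library with the least Reg3a, Reg3b and Reg3g, had the most Ang4.

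**Figure D1:**
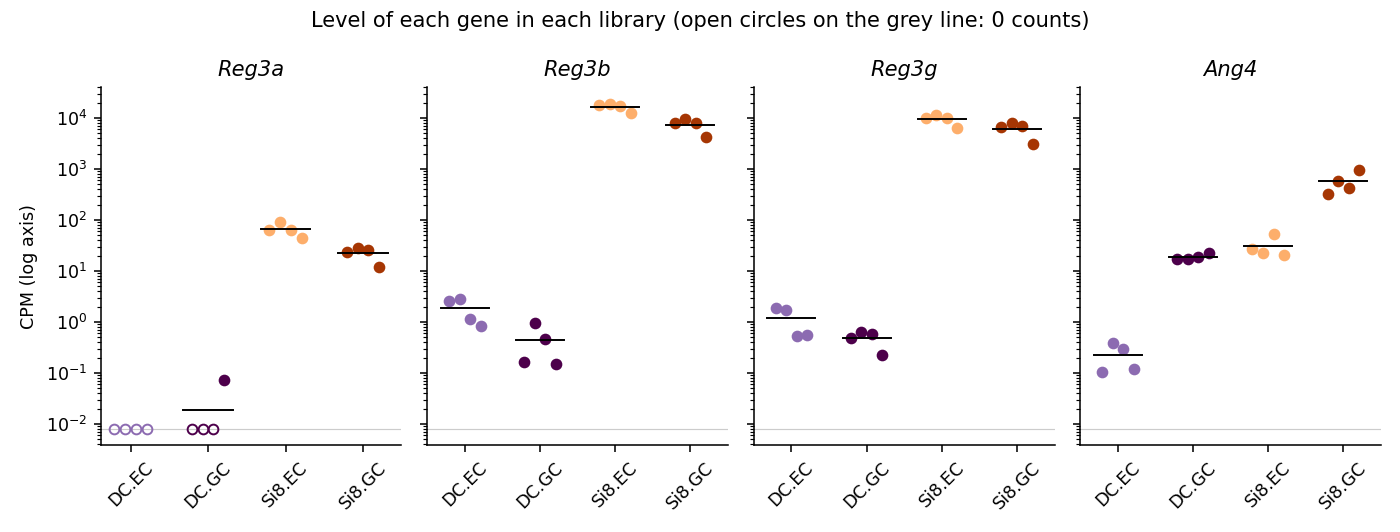
CPM (log axis) of Reg3a, Reg3b, Reg3g and Ang4 in the 4 libraries of each group, with black lines at the group means and open circles on the grey line for libraries with 0 counts. The Reg3 genes are highest in Si8.EC and lie below 3 CPM in every DC library, while Ang4 is highest in Si8.GC and above 17 CPM in every DC.GC library.

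Mean Reg3b levels ranked from Si8.EC (16807 ± 2823 CPM, SD, n = 4) through Si8.GC (7454 ± 2215) and DC.EC (1.84 ± 0.996) to DC.GC (0.439 ± 0.386), and only the DC groups overlapped as neighbours. Mean Reg3g levels had the same order, at 9623 ± 2290, 6166 ± 2070, 1.18 ± 0.742 and 0.484 ± 0.187 CPM, with overlap within each region. Mean Reg3a levels were 65.6 ± 19.0 CPM in Si8.EC and 22.6 ± 7.31 in Si8.GC. Mean Ang4 levels ranked from Si8.GC (576 ± 277 CPM) through Si8.EC (30.9 ± 15.5) and DC.GC (18.7 ± 2.43) to DC.EC (0.228 ± 0.138). Si8.EC and DC.GC, the middle pair for Ang4, overlapped.

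Per kb, Reg3b ranked first of 12950 tested genes with a coding transcript length in every Si8.EC library, and between 3 and 12 in Si8.GC. Reg3g ranked between 2 and 3 in Si8.EC and between 5 and 15 in Si8.GC. Reg3b and Reg3g together took 1.6% to 3.02% of counts in Si8.EC and 0.658% to 1.68% in Si8.GC, against at most 0.000477% in any DC library. Ang4 ranked between 29 and 88 in Si8.GC, 900 and 2386 in Si8.EC and 1845 and 2376 in DC.GC, so within Si8.GC it was the third of these genes by level, at a mean of 812 CPM per kb against 9520 for Reg3b, 7997 for Reg3g and 27.4 for Reg3a. Reg3a ranked between 547 and 1297 in Si8.EC, where the means were 21464 CPM per kb for Reg3b, 12481 for Reg3g, 79.5 for Reg3a and 43.6 for Ang4.

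The comparison of goblet with other cells asks which genes mark each sort. In Si8, the 3 Reg3 lectins were lower and Ang4 higher in goblet cells. Reg3a changed by −1.54 ± 0.25 on the log2 scale (SE, 2.91-fold lower, edgeR quasi-likelihood adjusted p = 0.00015) and Reg3b by −1.17 ± 0.27 (2.25-fold lower, edgeR adjusted p = 0.00108). Reg3g changed by −0.64 ± 0.27 (1.56-fold lower, edgeR adjusted p = 0.0442). Ang4 changed by 4.22 ± 0.37 (18.6-fold higher, edgeR adjusted p = 2e-07). All 4 genes were called at an adjusted p under 0.05, 1 higher and 3 lower, where 64.9% of all tested genes were called, 33.1% higher and 31.8% lower.

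The Reg3g call in Si8 was narrow. It was lost in 11 of the 16 fits that left out 1 library each, with edgeR adjusted p from 0.0168 to 0.121 and changes from −0.80 to −0.42, the smallest change being without Si8.GC library S8 (edgeR adjusted p = 0.117). The libraries whose removal ended the call were S12 of DC.EC, S9, S11, S13 and S18 of DC.GC, S1, S3 and S5 of Si8.EC, and S2, S6 and S8 of Si8.GC. It was also lost with DESeq2 (−0.69, adjusted p = 0.126). The summed counts of Reg3b and Reg3g changed by −0.96 ± 0.29 (edgeR adjusted p = 0.00939) and stayed called without any single library.

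In the distal colon, Ang4 was higher and Reg3b lower in goblet cells. Ang4 changed by 6.37 ± 0.66 on the log2 scale (82.6-fold higher, edgeR adjusted p = 1.48e-06). Reg3b changed by −1.94 ± 0.56 (3.83-fold lower, edgeR adjusted p = 0.00692), on 35 counts in all in DC.GC and 125 in DC.EC. Without DC.GC library S11 the Reg3b change was −2.73 (edgeR adjusted p = 0.00192), and limma-voom gave −2.11 with an adjusted p of 0.0518. Reg3g changed by −1.22 ± 0.60 (edgeR adjusted p = 0.0966), which did not pass, on 37 and 81 counts. It passed with DESeq2 (−1.30, adjusted p = 0.0179), in a fit of the DC libraries alone (−1.24, edgeR adjusted p = 0.0313) and without Si8.GC library S8 (−1.21, edgeR adjusted p = 0.038). The summed counts changed by −1.63 ± 0.49 (edgeR adjusted p = 0.00996). Reg3a had 1 count against 0, so no fold is given.

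Of the 4 genes, 2 were called in DC, 1 higher and 1 lower. Reg3a, with 1 count against 0, could not be called. Of all tested genes 55.7% were called there, 27.8% higher and 27.9% lower. The median log2 fold change of all tested genes was 0.03 in both DC and Si8.

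**Figure D2:**
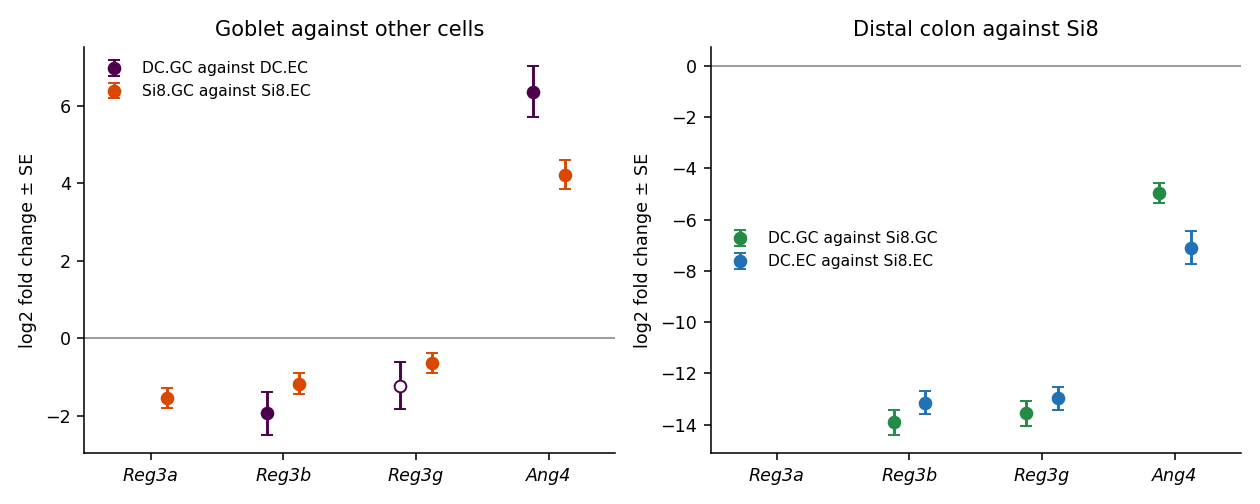
Log2 fold change ± SE from edgeR for goblet against other cells (left) and distal colon against Si8 (right), with filled points for an adjusted p under 0.05 and Reg3a shown only for Si8, where both groups had counts throughout. Ang4 lies at 6.37 and 4.22 on the left while the Reg3 genes lie below 0, and on the right Reg3b and Reg3g lie near −13 to −14 and Ang4 at −4.95 and −7.09.

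The goblet effect was then compared between regions. The DC effect minus the Si8 effect was −0.77 ± 0.63 for Reg3b (edgeR adjusted p = 0.386), −0.58 ± 0.66 for Reg3g (0.543, likewise an edgeR adjusted p) and 2.15 ± 0.96 for Ang4 (edgeR adjusted p = 0.108). The number of these genes called, Reg3a left out, was 0 with edgeR, against 32.1% of all tested genes (15.6% higher, 16.5% lower). With edgeR 1 of them, Ang4, had an unadjusted p under 0.05. DESeq2 called Ang4 (2.18, adjusted p = 0.00683), and so did edgeR without Si8.GC library S8 (2.50, adjusted p = 0.0224). Without DC.GC library S11 the Reg3b difference was −1.56 (edgeR adjusted p = 0.127), and without DC.GC library S9 it was −0.48 (edgeR adjusted p = 0.625). The Reg3a difference has no value, since DC had 1 count.

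The comparison of regions asks how goblet cells and other epithelial cells differ along the gut. All 4 genes were lower in DC than in Si8 in both sorts. Among goblet cells, Reg3b was 15492-fold lower (log2 −13.92 ± 0.48, edgeR adjusted p = 1.12e-13) and Reg3g 12058-fold lower (−13.56 ± 0.48, edgeR adjusted p = 2.16e-13). Ang4 was 30.8-fold lower (−4.95 ± 0.39, edgeR adjusted p = 6.43e-08). Reg3a had 3246 counts in Si8.GC and 1 in DC.GC, a ratio of 1641 on TMM-scaled totals with a 95% counting interval from 294.3 to 64830. Without DC.GC library S11 the Reg3b change was −14.71. Fold changes this large rest on the few DC counts.

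Among other epithelial cells, Reg3b was 9114-fold lower in DC (−13.15 ± 0.45, edgeR adjusted p = 6.72e-14) and Reg3g 8058-fold lower (−12.98 ± 0.46, edgeR adjusted p = 1.37e-13). Ang4 was 137-fold lower (−7.09 ± 0.64, edgeR adjusted p = 1.87e-07). Reg3a, with 8761 counts in Si8.EC and 0 in DC.EC, was at least 1523-fold lower against a floor of 3 counts over the group.

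Reg3b, Reg3g and Ang4 were called lower in DC in both sorts. Reg3a, with 0 counts in DC.EC and 1 in DC.GC, passed the filter only through Si8, where it is high. Its regional calls are therefore not counted as tests. Among goblet cells 62.1% of all tested genes were called (30.6% higher, 31.5% lower), and among other cells 66.9% (33.3% higher, 33.6% lower). Leaving the mitochondrially encoded genes out of the totals moved no regional call of Reg3b, Reg3g or Ang4. The 2 goblet comparisons and the 2 regional ones share groups, so their values are set side by side and no overlap between them is drawn.

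Within Si8 the balance of Reg3b to Reg3g differed between the sorts. The ratio of their CPM per kb was 1.71, 1.62, 1.69 and 1.97 in Si8.EC libraries S1, S3, S5 and S7 (mean 1.75 ± 0.155) and 1.17, 1.18, 1.16 and 1.34 in Si8.GC libraries S2, S4, S6 and S8 (1.21 ± 0.0855). The groups did not overlap, and S7 and S8, the libraries with the least Reg3b of their groups, had the highest ratios. This is a description, with no test. In DC the ratio ran from 1.31 to 2.08 in DC.EC and from 0.328 to 1.48 in DC.GC, with counting intervals that reach from 0.0548 to 5.73 in DC.GC library S18. Reg3a counts were 0.343% to 0.466% of Reg3b counts in Si8.EC and 0.280% to 0.325% in Si8.GC, again without overlap.

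**Figure D3:**
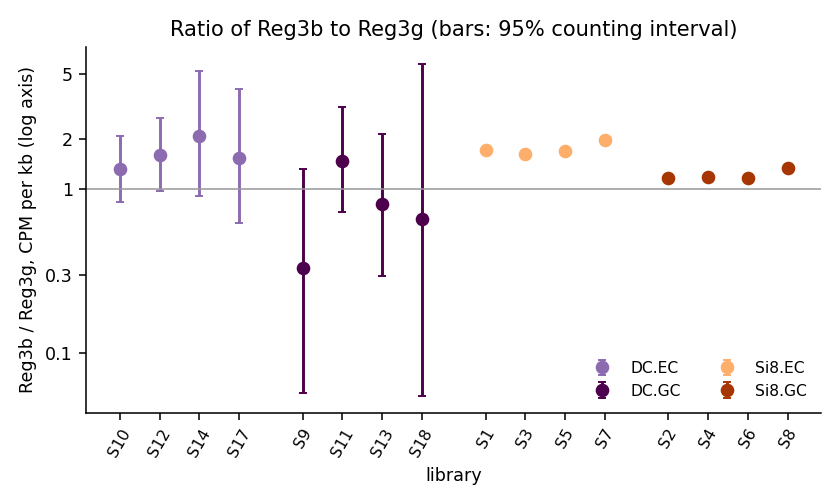
Ratio of Reg3b to Reg3g in CPM per kb (log axis) in each library, with 95% counting intervals as bars. Si8.EC libraries lie between 1.62 and 1.97 and Si8.GC libraries between 1.16 and 1.34, with intervals smaller than the points, while the DC intervals are wide.

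The other genes of the Reg cluster were far below their neighbours in the small intestine. Reg3d, a further lectin between Reg3b and Reg3a, had a mean of 0.466 ± 0.139 CPM in Si8.EC and 0.25 ± 0.063 in Si8.GC and 0 counts in DC. Reg1 had 0.741 ± 0.134 CPM in Si8.EC and 1.55 ± 0.237 in Si8.GC and rose in goblet cells there (log2 1.05 ± 0.24, edgeR adjusted p = 0.000986), unlike the 3 members of its cluster described above. Reg2 had at most 2 counts in any group. Thus 3 of the 6 genes of the cluster were above 10 CPM in Si8, and they do not adjoin: Reg3d separates Reg3b from Reg3a, and Reg2 and Reg1 separate these from Reg3g.

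**Figure D4:**
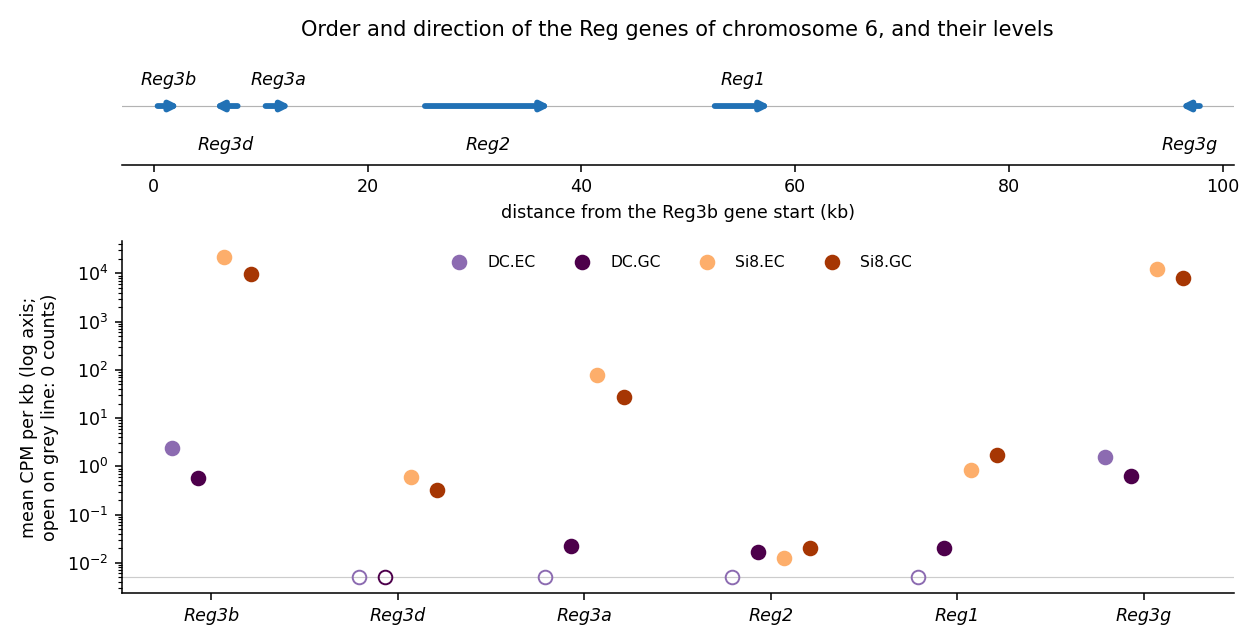
Order and direction of the 6 Reg genes of chromosome 6 by distance from Reg3b (top), and their mean CPM per kb (log axis) in the 4 groups (bottom, open circles for 0 counts). Reg3b, Reg3a and Reg3g stand above 25 CPM per kb in both Si8 groups, and Reg3d, Reg2 and Reg1 stay below 2.

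Reg4, the family member outside this cluster and a marker of deep crypt secretory cells of the colon, had a distribution unlike that of the Reg3 genes. It had 13.9 ± 6.51 CPM in DC.EC and 1359 ± 310 in DC.GC (log2 6.61 ± 0.38, edgeR adjusted p = 9.69e-10), and 15.2 ± 3.97 in Si8.EC and 107.5 ± 37.9 in Si8.GC (2.82 ± 0.32, edgeR adjusted p = 2.05e-06). Its goblet effect differed between regions by 3.79, a difference that was called.

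Of the 9 angiogenin family genes listed beside Ang4, 8 were in the tables and 3 were tested. Ang, the first angiogenin, had 6.25 ± 0.533 CPM in DC.EC and 12.8 ± 1.85 in DC.GC, and 9.25 ± 1.01 in Si8.EC and 24.0 ± 3.24 in Si8.GC. Rnase4 had 49.7 ± 2.23 and 123 ± 9.96 CPM in the DC sorts and 53.0 ± 7.41 and 199.8 ± 27.2 in the Si8 sorts. Both were called higher in goblet cells of both regions, and since they overlap in the genome their split of reads is uncertain. Rnase1 was called higher in Si8.GC (6.46 ± 1.87 CPM against 1.15 ± 0.216 in Si8.EC) and not in DC, where it had 9 and 3 counts. Rnase6 had 61 counts in Si8.EC and at most 9 in any other group, Ang2 had 1 count in Si8.EC and 1 in Si8.GC, and Ang5, Ang6 and Rnase10 had 0.

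Markers of other secretory cells were read beside Ang4, since it is known from Paneth cells. Of 12 Paneth markers 11 were in the tables. Their summed level was 714 to 1904 CPM in Si8.EC, 11593 to 33174 in Si8.GC, 0.194 to 1.54 in DC.EC and 3.46 to 5.34 in DC.GC. All 10 tested Paneth markers were called higher in Si8.GC than in Si8.EC, and 2 of 10 in DC.GC than in DC.EC. Of all tested genes, 33.1% were called higher in Si8.GC and 27.8% in DC.GC. The 2 regional counts are not comparable, since Defa17, Defa20, Defa21, Defa22, Defa24 and Defa26 had 0 counts in every DC library. They passed the filter through Si8 alone and could not be called in DC. Ang4 was 2.82% to 3.06% of this sum in Si8.EC and 2.54% to 2.88% in Si8.GC, and in each Si8 group the libraries ranked alike by Ang4 and by the sum, S8 highest in GC and S5 highest in EC. In DC.GC, 7 of the 11 markers, all of them the α-defensins Defa17, Defa20, Defa21, Defa22, Defa23, Defa24 and Defa26, had 0 counts in every library, and Ang4 was 350% to 643% of the sum. These defensins are near-identical copies, so reads may be split among them. The share was computed after the values had been seen. Set against the 8 goblet markers, Ang4 was 4.18% to 7.35% of their sum in Si8.EC, 0.157% to 0.504% in Si8.GC and 0.0422% to 0.0558% in DC.GC. Markers of deep crypt secretory cells, the colonic cells at the crypt base, were also higher as a sum in the goblet sort of each region. Unlike Ang4, these markers (Reg4, Kit, Egf, Cd24a, Dll1 and Dll4) summed higher in DC.GC than in Si8.GC. Reg4, described above, is part of this sum, at a mean of 1359 CPM in DC.GC and 107.5 in Si8.GC. Of the 6 genes, 4 were called higher and 1 lower in DC.GC than in Si8.GC, beside 30.6% and 31.5% of all tested genes. The sum over the 6 genes was 187 to 278 CPM in DC.EC and 2274 to 3006 in DC.GC, where 6 of 6 were called higher. It was 169.6 to 211 in Si8.EC and 628 to 903 in Si8.GC, where 5 of 6 were called higher. The part of Paneth cells or of deep crypt secretory cells in the results for Ang4 was not tested.

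Enterocyte markers were read beside the Reg3 genes in the same way. The sum of 8 enterocyte markers in Si8.GC was 9.73% of that in Si8.EC, and for the colonocyte marker sum this share was 57.3%. The Si8.GC mean was 34.4% of the Si8.EC mean for Reg3a, 44.4% for Reg3b and 64.1% for Reg3g. Within Si8.EC the libraries ranked in opposite order by Reg3b and by the enterocyte sum, which was 18680 CPM in S1, 12820 in S3, 20890 in S5 and 24650 in S7. Intraepithelial lymphocyte markers also moved with the sort, at 6.24% of the Si8.EC sum in Si8.GC. In DC, the goblet mean was 23.9% of the other mean for Reg3b and 41.0% for Reg3g, beside 13.7% for the colonocyte marker sum. The part of residual enterocytes or colonocytes in the goblet sorts was not tested.

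**Figure D5:**
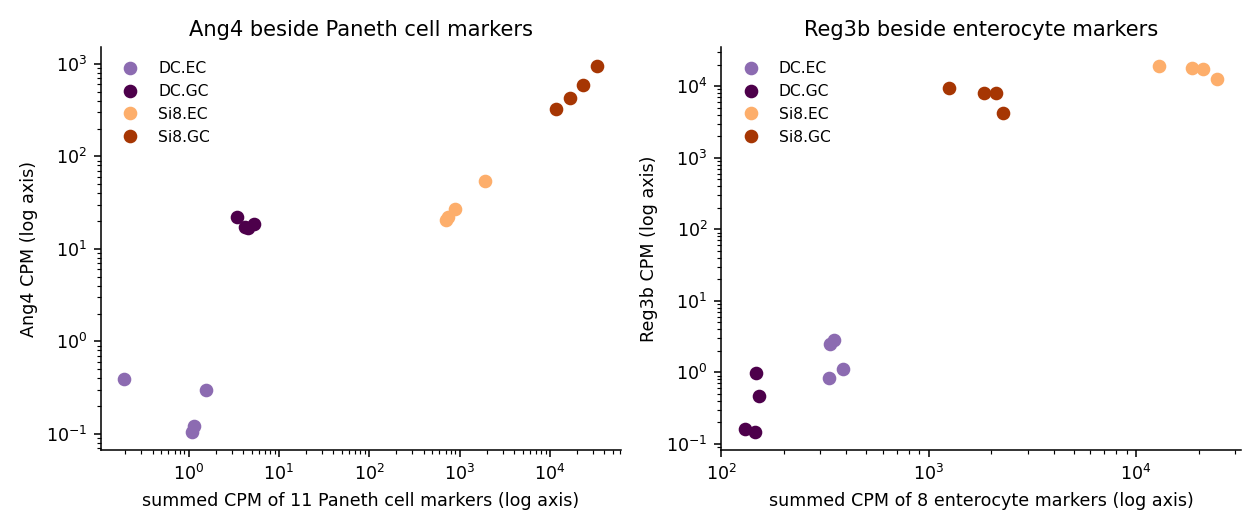
Ang4 CPM against the summed CPM of 11 Paneth cell markers (left) and Reg3b CPM against that of 8 enterocyte markers (right), each point 1 library, all axes log. In the Si8 libraries Ang4 is 2.54% to 3.06% of the Paneth sum, while the DC.GC libraries lie at a Paneth sum of 3.46 to 5.34 CPM with Ang4 above 17 CPM, and the Si8.GC libraries hold Reg3b at a lower enterocyte sum than Si8.EC.

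The receptors, inhibitor and inducing pathways of these genes were read from lists. Of 4 genes that bind Reg or angiogenin proteins or carry their signals, Plxnb2, the plexin that binds angiogenin, was lower in goblet cells of both regions (484 ± 15.6 CPM in DC.EC against 318 ± 5.92 in DC.GC, and 1061 ± 180 in Si8.EC against 575 ± 106 in Si8.GC). Rnh1, the intracellular ribonuclease inhibitor, was higher in both (94.96 ± 2.76 against 140.1 ± 6.30 CPM, and 115 ± 15.99 against 169 ± 24.3). Extl3, described as a receptor for Reg proteins, was also higher in both, and Egfr only passed in Si8. The list counts were 2 higher and 1 lower in DC and 3 higher and 1 lower in Si8.

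Genes of the IL-22 and gp130 receptors and of STAT3 signalling were called in both directions in goblet cells: 3 higher and 7 lower of 14 in DC (median log2 fold change −0.55) and 2 higher and 7 lower in Si8 (−0.33). Il22ra1, the IL-22 receptor of epithelium, was 73.6 ± 7.13 CPM in DC.EC and 19.1 ± 2.15 in DC.GC (log2 −1.95 ± 0.18, edgeR adjusted p = 7.38e-08), and 166 ± 39.4 in Si8.EC and 90.0 ± 22.1 in Si8.GC (−0.89 ± 0.17, edgeR adjusted p = 0.00022). Il6ra rose in DC.GC from 1.83 ± 0.553 to 21.9 ± 6.33 CPM. Among 11 tested other products induced by IL-22 and STAT3, 2 were higher and 7 lower in DC (median −2.10) and 0 higher and 7 lower in Si8 (−1.40). Saa1, a serum amyloid that carries retinol, fell from 1005 ± 96.6 CPM in DC.EC to 89.9 ± 19.6 in DC.GC and from 432 ± 125 in Si8.EC to 88.4 ± 43.0 in Si8.GC. Nos2, the inducible nitric oxide synthase, fell in Si8 from 1514 ± 367 to 211 ± 53.5 CPM.

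Between regions the IL-22 and STAT3 products went both ways: 5 of 11 were higher and 5 lower in DC.EC than in Si8.EC. Among goblet cells 4 were higher and 5 lower in DC. Of all tested genes, 33.3% were higher and 33.6% lower among other cells, and 30.6% and 31.5% among goblet cells. Unlike the Reg3 genes, Saa1 was as abundant in the distal colon as in Si8 or more so. Nos2, like them, was lower there, at 4.93 CPM in DC.EC against 1514 in Si8.EC. Among 19 tested genes of Toll-like receptor and MyD88 signalling, 3 were higher and 7 lower in DC.GC (median −0.11) and 5 higher and 7 lower in Si8.GC (−0.11). Irak2, a kinase of that pathway, was lower in both, from 82.8 ± 10.5 to 21.2 ± 5.62 CPM in DC and from 134 ± 26.6 to 34.3 ± 4.32 in Si8. Of 9 tested genes of retinoic acid synthesis and reception, 0 were higher and 6 lower in DC (median −0.69) and 1 higher and 5 lower in Si8 (−0.87), with Rbp2 and Aldh1a1 lower in both. The counts for goblet against other cells stand beside the 27.8% and 27.9% of all tested genes called higher and lower in DC. In Si8 these shares were 33.1% and 31.8%.

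Other secreted antimicrobial proteins and lectins went both ways. Of 17 tested, 8 were higher and 7 lower in DC (median −0.08) and 8 higher and 6 lower in Si8 (0.16). Zg16, a goblet lectin that binds Gram-positive bacteria, rose from 52.2 ± 6.15 to 4416 ± 675 CPM in DC and from 40.9 ± 17.5 to 11891 ± 4442 in Si8, the direction of Ang4. Ccl6 and Retnlb, the latter a bactericidal resistin-like protein of goblet cells, were also higher in goblet cells of both regions. These genes are named for having the largest changes of the list, and the 7 lower in DC and 6 lower in Si8 are not named. Ang4, Zg16, Ccl6 and Retnlb were thus higher in the goblet sorts, while Reg3a and Reg3b were lower in Si8.GC.

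The genes most like each member were found by Pearson r of log2(CPM + 0.5) over the 16 libraries, among the 9139 genes that averaged 10 CPM or more, as a description. For Reg3a they were Ms4a18 (r = 0.995), Bcl2l15, Slc30a2, Enpep and Fabp6. For Reg3b they were Reg3g (r = 0.9987), Osr2, Gm4202, mt-Rnr2 and Bcl2l15, and for Reg3g they were Reg3b, Osr2, mt-Co1, mt-Rnr2 and Gm4202. For Ang4 they were Gm43360 (r = 0.985), Ntn4, Gna12, Zfpm1 and Eif4ebp1. The mitochondrially encoded genes are at 0 in every DC library, and the 16 points share their region, table and depth. By Spearman rho, 0 of the 5 genes were shared for Reg3a and Reg3b and 1 for Reg3g and Ang4. Ang4 had r of 0.65 to 0.70 with the Reg3 genes, which among themselves had at least 0.987.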

How the data were processed

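Bulk RNA of 16 sorted epithelial samples was sequenced as stranded, paired-end total RNA libraries after ribosomal RNA removal, per the labels' protocols. The authors deposited raw read counts per gene for each region, and a normalized signal, counts divided by size factors. The submitters' processing notes name FastQC 0.11.2, STAR 2.4.0f, HTSeq 0.6.1p1, DESeq2 1.14 and build mm10; the strand setting of the counting and other parameters: not given in the sources used here. Multiplied by size factors, 100% of 519072 deposited signal values equalled the counts within 0.001, so the counts were tested.

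The 4 genes and the lists were chosen with earlier results of these data known. Symbols listed more than once (4 entries) were left out. Counts were fitted with edgeR 4.0.16 in R 4.3.3 (TMM, filterByExpr with a count minimum of 10, 1 robust quasi-likelihood fit over the 4 groups, no covariate), with Benjamini-Hochberg adjustment over 16001 genes and a call at 0.05. The biological coefficient of variation was 0.128. The script was tested on simulated data. Named genes are the 4 genes, their families, up to 4 called genes with the largest change per list and contrast, and the 5 most alike by Pearson r. Alternatives used DESeq2 1.42.0, limma 3.58.1, other factors, filters and totals, and each library left out. Sequences were aligned globally. Counting intervals cover counting error only.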

Additional observations from a re-analysis of the deposited data

Results flagged for a closer look

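Among the values per library of the 4 genes and of the Reg3b to Reg3g ratio, 20 groups of 4 were examined for a library far from the others. Chance alone flags about 1 in 20 groups, a rate that does not hold for Reg3a in DC, where almost all counts were 0. Reg3a in DC.GC library S18 was at 0.0735 CPM, a single count, where the other 3 libraries were at 0, a pattern that is always flagged. The Reg3b to Reg3g ratio of Si8.GC library S8 was 1.338, apart from the 1.157 to 1.182 of the other 3.

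The goblet effect differed between the regions for the family genes Reg4 and Rnase4 by edgeR's test of the difference (DC effect minus Si8 effect, log2). The difference was 3.79 for Reg4, which rose more in the goblet sort of the distal colon, and −0.60 for Rnase4. Rnase1 was also flagged, at −4.05, but had only 9 counts in DC.EC and 3 in DC.GC. Like Reg3a, it passed the filter on low counts through Si8 alone, so its difference is not counted as a test.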

How the results depend on the processing

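Over 23 log2 fold changes, 604 alternatives gave the same direction and call in 578, a lost call in 18, a gained call in 7 and a reversal in 1; scaling moved the median gene by at most 0.0683. In DC, Reg3b lost its call with limma-voom (−2.11, adjusted p = 0.0518), leaving 1 gene called there. Reg3g in DC gained one with DESeq2 (−1.30), with only the 2 groups in the fit (−1.24), and counted with Reg3b (−1.63) or with all Reg3 genes (−1.61); without 1 library it ranged from −1.46 to −0.86. Summed Reg3b and Reg3g in DC lost theirs with no filter (−1.63, adjusted p = 0.0582) and limma-voom (−1.59, adjusted p = 0.0922). Reg3g in Si8 lost its call with DESeq2 (−0.69), upper-quartile factors (−0.61), no filter (−0.62) and only the 2 groups (−0.64), and ranged from −0.80 to −0.42 without 1 library. The Ang4 difference between regions was called with DESeq2 (2.18), giving 1 gene called, and reversed when all Ang genes were counted as 1 (−1.62, adjusted p = 0.0101), a sum in which Ang is included; without 1 library it ranged from 1.75 to 2.50 and the number called from 0 to 1. Counting the Ang genes as 1 also gave 2.28 in place of the 6.37 of Ang4 in DC. Per kb of all annotated exons, chosen after seeing the data, the Reg3b to Reg3g ratio was 3.07 in DC.EC, 1.54 in DC.GC, 3.28 in Si8.EC and 2.28 in Si8.GC. The cause of these changes was not tested beyond the alternatives themselves. No paired analysis was possible because the library numbers of the labels are each used once and no number is shared between groups. Whether libraries of neighbouring numbers, which alternate between the sorts, come from the same animals is not stated in the labels. Few DC counts limit the Reg3 values there.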
